A study of Mus musculus with 9 samples.

Results

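The 33 genes described here code for enzymes that work inside the lysosome, for activators, carriers and precursor proteins that go with them, and for proteins of the lysosomal membrane. They were taken by name from a gene table of mouse testis, and 33 of 33 were found among its 55401 genes. The rule uses names alone, but the list was chosen by a reader of earlier results on the counts and FPKM of these 3 groups, so its counts describe the genes and are not independent evidence that lysosomal genes moved. RNA was sequenced in 9 libraries, 3 in each of 3 groups, and all 3 groups carried busulfan, an alkylating drug used here to deplete germ cells. The groups had been injected with PBS (labelled BP, replicates 5, 6 and 7), with exosomes from wild-type blood (BE, replicates 6, 7 and 8), or with those of mice with intestinal microbiota imbalance (BdE, replicates 5, 6 and 7). Exosomes are small vesicles released by cells. Strain, age, dose and time are not given in the labels, nor whether each library is 1 animal, so the p-values rest on a spread between libraries that may be technical.

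Lysosomes are acidic organelles that break down proteins, glycans and lipids taken up from outside the cell or delivered from within it by autophagy. Most of their enzymes are tagged with mannose 6-phosphate in the Golgi and carried to the lysosome by receptors, a proton pump (the V-ATPase) keeps the lumen acidic, and heavily glycosylated proteins line the membrane. In the testis, Sertoli cells digest residual bodies and dying germ cells in lysosomes, and macrophages and steroid-producing Leydig cells are also rich in them.

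Many lysosomal genes are known to carry near their start a short element built around the letters CACGTG, which is bound by the transcription factor TFEB and its relatives. Of the 33 genes 28 had an entry among the RefSeq promoters (GRCm38.p6), with 31 promoters in all. In the 250 bases before the start, CACGTG, which reads the same on both strands, occurred in 12 of these 31 promoters (38.7%), against 6.02% of all 32851 promoters and 8.28% of the 12700 promoters of genes tested. The longer TCACGTG, read on either strand and contained in matches of the first motif, occurred in 35.5% of the promoters of the 33 genes and 3.13% of all. Windows of 70 bases are shown for 3 genes whose RNA was lower in BdE than in BP when these groups were fitted alone (Lamp1, Ctsd and Glb1) and for 2 genes that did not pass there (Naglu and Mcoln1), chosen after their values were seen. They are written 5′ to 3′ along the gene's strand, and capitals mark CACGTG.
Lamp1 (chr8:13159091-13159160, plus strand): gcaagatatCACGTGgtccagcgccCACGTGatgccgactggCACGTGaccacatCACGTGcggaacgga
Ctsd (chr7:142387888-142387957, minus strand): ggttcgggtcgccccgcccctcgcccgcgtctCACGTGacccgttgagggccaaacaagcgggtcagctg
Glb1 (chr9:114400998-114401067, plus strand): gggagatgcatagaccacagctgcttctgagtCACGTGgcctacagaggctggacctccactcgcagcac
Naglu (chr11:101069989-101070058, plus strand): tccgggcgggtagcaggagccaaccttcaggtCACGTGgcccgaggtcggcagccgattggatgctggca
Mcoln1 (chr8:3500442-3500511, plus strand): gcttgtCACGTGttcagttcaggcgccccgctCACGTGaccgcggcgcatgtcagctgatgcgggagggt
The motif was present both in genes that fell in that fit and in genes that did not pass. It was found in 4 of the 11 fallen genes with a promoter entry (Ctsd, Gaa, Glb1 and Lamp1) and in 8 of the 17 others, and a match of letters is not a measured binding site.

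All 33 genes passed the filter on low values (FPKM, fragments per kilobase of exon scaled to the library total, at 1 or more in 3 or more libraries), as did 14570 of the 55401 genes. Library totals were 57923652 to 70103125 counts, and the lowest count of any of the 33 genes in any library was 534 (Arsa). One library stood apart from its label: BE 6 resembled BP, and whether it is mislabelled or a BE sample of another kind cannot be told apart in these files. Its mitochondrial share of counts was 7.19%, against 7.10 to 8.01% in BP and 11.8 to 14.5% in the other 5 libraries. The rank correlation of exonic length with expression relative to the mean was 0.243 in BE 6, 0.194 to 0.269 in BP and between -0.220 and -0.064 in the other 5 libraries. Both measures therefore separate BP from BE 7, BE 8 and the BdE libraries. An effect of the exosomes on these libraries cannot be told apart from this split. The extraction text names another tissue, the retina. Testis markers were abundant (Insl3 of Leydig cells and Clu of Sertoli cells), while Gnat1, Pde6b, Sag and Rcvrn of photoreceptors stayed below an FPKM of 1 in all 9 libraries and Prph2, also a photoreceptor gene, had 8.96 ± 0.67 in BP (SD, n = 3). Of 7 spermatid markers 3 stayed below an FPKM of 1 in all libraries, but the 2 most abundant, Smcp and Odf1, varied between libraries: Smcp had 18.2 to 19.3 in BP, 42.3 to 185 in BE and 2.03, 142 and 137 in BdE.

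By FPKM, which allows levels of different genes to be set side by side, Psap was the most abundant of the 33 genes. Psap codes for prosaposin, the precursor of the saposins that help sphingolipid enzymes reach their substrates. Its FPKM was 809, 825 and 755 in BP, 919, 761 and 773 in BE 6, BE 7 and BE 8, and 662, 740 and 789 in BdE. The groups overlapped, and neither comparison with BP passed with 9 libraries (edgeR adjusted p = 0.606 for BE and 0.808 for BdE). Next came Ctsl, the gene of the cysteine protease cathepsin L, with an FPKM of 254, 288 and 251 in BP, 307, 255 and 256 in BE, and 223, 291 and 281 in BdE. Here too the groups overlapped. Ctsd, the gene of the aspartic protease cathepsin D, had a mean FPKM of 168 over the 9 libraries, Lamp1 160, Ctsb 107 and Hexa 96.8. At the low end stood Npc1 (2.26), Arsa (2.79) and Gla (4.27). Together the 33 genes held 0.878 to 0.962% of all counts in BP, 1.06% in BE 6, 0.755 and 0.784% in BE 7 and BE 8, and 0.684 to 0.839% in BdE.

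**Figure D1:**
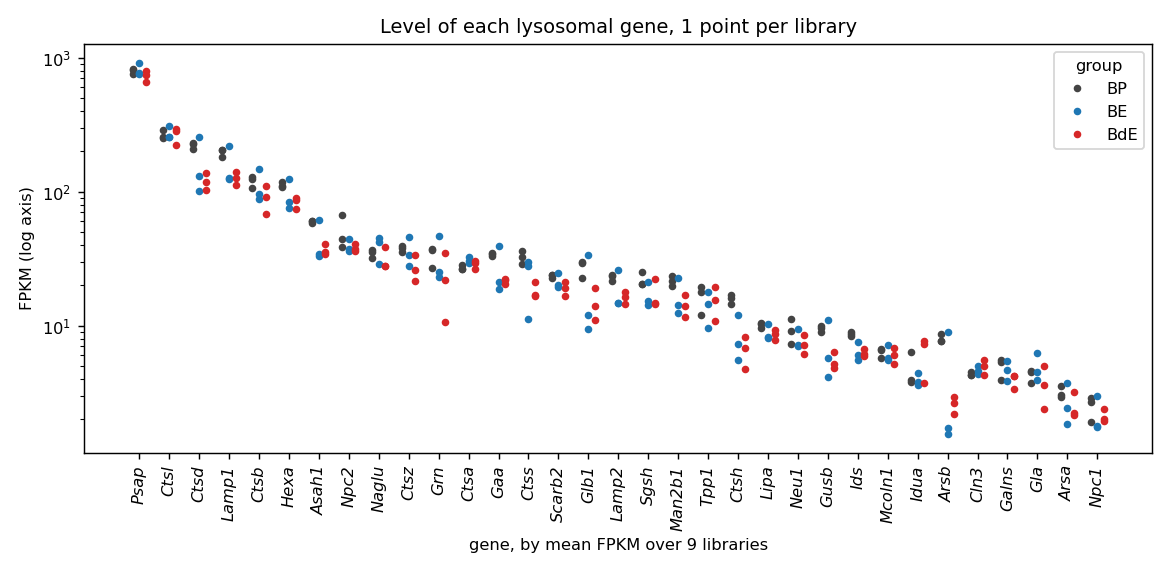
FPKM of each of the 33 genes (log axis) against gene name, ordered by the mean over 9 libraries, with 1 point per library and colour for the group. Psap stands highest, with 662 to 919, and for genes such as Ctsd and Arsb 1 blue BE point, that of BE 6, lies with the black BP points while the other BE points lie with the red BdE points.

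BdE was set against BP to ask what exosomes of mice with intestinal microbiota imbalance did in the depleted testis. The 2 groups also differed in mitochondrial share (7.10 to 8.01% in BP, 11.8 to 13.4% in BdE) and in the length trend. The comparison cannot be told apart from these differences between the libraries. Enzyme and membrane genes lay lower: 28 of 33 log2 fold changes were negative, against 48.8% of all genes tested, and the median was -0.31, against 0.01 over all genes. With all 9 libraries in 1 model, whose estimate of spread includes the split within BE, 0 of 33 genes passed (edgeR, lowest adjusted p = 0.19; background 0.0% lower and 0.00686% higher). At an unadjusted p under 0.05 there were 11 of 33, 11 lower and 0 higher, against 12.2% of all genes tested lower. DESeq2 called 1 gene lower, Ctsh (adjusted p = 0.00685), where it called 1.41% of all genes lower, and limma called 0. In the fit on the 6 BP and BdE libraries alone, 13 of 33 genes fell and 0 rose (edgeR), where 11.9% of all genes tested fell and 9.2% rose. Leaving out 1 library changed that count to 8 (BP 5), 5 (BP 6), 8 (BP 7) or 8 (BdE 7), where 5.63, 3.54, 4.48 and 4.99% of all genes fell. Without BdE 5 it was 13, with Sgsh in place of Glb1, and without BdE 6 it was 14, with 10.7 and 12.7% of all genes. Arsb, Asah1, Ctsd, Ctss and Gaa passed whichever of the 6 libraries was left out. In bulk tissue a smaller number of cells that express a gene cannot be told from less of its RNA in each cell. In the account that follows, "fell" refers to the 6-library fit, and log2 fold changes come with the SE of the fit. Levels there are in CPM (counts scaled to equal library sizes after TMM normalization), given in the order of the replicate numbers.

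Of the 8 protease genes and partners, 3 fell: Ctsd, Ctsh and Ctss. Ctsd had 578, 595 and 551 CPM in BP and 278, 373 and 333 in BdE. All BdE libraries lay below all BP libraries, and the fold change was -0.81 (SE 0.113, edgeR adjusted p = 0.00985). Ctsh, the gene of cathepsin H, an aminopeptidase, had 78.9, 83.6 and 74.1 CPM in BP and 43.0, 35.2 and 25.3 in BdE, again without overlap. Its fold change was -1.19 (SE 0.192, edgeR adjusted p = 0.0129). Ctss, the gene of cathepsin S, which trims the invariant chain in antigen-presenting cells, had 52.8, 43.5 and 50.2 CPM in BP and 26.8, 32.9 and 27.1 in BdE, and its fold change was -0.75 (SE 0.121, edgeR adjusted p = 0.0128). The groups did not overlap for this gene either.

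The other 5 protease genes did not pass. Ctsb, for cathepsin B, had 810, 857 and 727 CPM in BP and 476, 766 and 662 in BdE, and Ctsz, for the carboxypeptidase cathepsin Z, had 61.2, 60.1 and 57.3 and then 36.2, 55.8 and 45.1. For both, BdE 5 was the lowest library, and only Ctsz showed no overlap (log2 fold change -0.38, SE 0.157, edgeR adjusted p = 0.132). Tpp1, a tripeptidyl peptidase gene, spread widely within both groups (68.0 to 110 CPM in BP, 66.5 to 116 in BdE). Ctsa, for the protective protein that stabilises beta-galactosidase and neuraminidase, had 137 to 146 CPM in BP and 145 to 172 in BdE. Ctsl had a fold change of 0.08 (SE 0.126, edgeR adjusted p = 0.665).

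Of the 9 glycosidase genes 5 fell: Glb1, Gusb, Gaa, Man2b1 and Hexa. Gaa, for the alpha-glucosidase that degrades glycogen in the lysosome, had 178, 183 and 180 CPM in BP and 121, 113 and 126 in BdE. Its libraries lay close together in each group and far apart between them (-0.58, SE 0.060, edgeR adjusted p = 0.00631). Gusb, for beta-glucuronidase, had 47.8, 50.02 and 46.0 CPM in BP and 27.2, 33.5 and 26.2 in BdE (-0.73, SE 0.114, edgeR adjusted p = 0.0123). Glb1, for beta-galactosidase, had 98.3, 96.7 and 77.3 CPM in BP and 38.2, 66.0 and 50.2 in BdE. The groups of Gusb and of Glb1 did not overlap, and the fold change of Glb1 was -0.82 (SE 0.210, edgeR adjusted p = 0.041). Man2b1, for an alpha-mannosidase, had 205, 192 and 178 CPM in BP and 108, 156 and 133 in BdE (-0.54, SE 0.139, edgeR adjusted p = 0.0424). Hexa, for the alpha subunit of beta-hexosaminidase, had 240, 259 and 245 CPM in BP and 172, 205 and 207 in BdE (-0.35, SE 0.086, edgeR adjusted p = 0.0364). Both were lower in every BdE library than in any BP library.

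The remaining 4 glycosidase genes went in different directions. Gla (alpha-galactosidase), Neu1 (a sialidase) and Naglu (an enzyme of heparan sulfate breakdown) had fold changes of -0.15 (SE 0.260), -0.27 (SE 0.181) and -0.07 (SE 0.135), with edgeR adjusted p = 0.324 for Neu1, the lowest of these. Idua, for the iduronidase that also degrades heparan and dermatan sulfate, had 17.3, 29.3 and 18.5 CPM in BP and 37.5, 17.9 and 36.4 in BdE. BdE 5 and BdE 7 lay above every other library, BdE 6 lay within the range of BP, and the difference did not pass (0.49, SE 0.337, edgeR adjusted p = 0.331).

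Among the 5 sulfatase genes, Arsb had the largest fall of all 33 genes, and Ids also fell. Arsb (ENSMUSG00000042082, GRCm38 chromosome 13, 93771630 to 93943016, plus strand) codes for arylsulfatase B, which removes sulfate from dermatan and chondroitin sulfate. It had 50.4, 51.1 and 58.6 CPM in BP and 18.4, 20.4 and 15.8 in BdE. The mean went from 53.4 ± 4.57 to 18.2 ± 2.31 CPM (SD, n = 3), with no overlap and a fold change of -1.55 (SE 0.124, edgeR adjusted p = 0.00437). Ids, for iduronate sulfatase, had 46.6, 48.4 and 51.9 CPM in BP and 39.3, 34.8 and 37.3 in BdE. These did not overlap (-0.40, SE 0.083, edgeR adjusted p = 0.0228). Sgsh, for sulfamidase, was split in BdE, with 115 CPM in BdE 5, inside the range of BP (98.2 to 124), and 73.8 and 78.2 in BdE 6 and BdE 7. Arsa and Galns had fold changes of -0.25 (SE 0.174) and -0.24 (SE 0.172) and did not pass.

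Of the 6 genes for lipid enzymes, activators and carriers, Asah1 fell. Asah1 codes for acid ceramidase, which splits ceramide into sphingosine and a fatty acid. It had 213, 227 and 231 CPM in BP and 135, 158 and 144 in BdE, without overlap (-0.62, SE 0.076, edgeR adjusted p = 0.00808). Psap (-0.05, SE 0.096) and Lipa, for the acid lipase that frees cholesterol from its esters (-0.16, SE 0.090), did not pass. The cholesterol carriers Npc1 (-0.16, SE 0.181) and Npc2 (-0.31, SE 0.192) did not pass either. The value of Npc2 rested on BP 5, with 396 CPM against 229 to 266 in the other 5 libraries. Grn, for progranulin, a precursor whose fragments act in the lysosome, had 139, 103 and 146 CPM in BP and 88.3, 139 and 44.3 in BdE. The low value of BdE 7 and the high value of BdE 6 gave a wide interval (-0.51, SE 0.396, edgeR adjusted p = 0.39).

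Of the 5 membrane protein genes, the 2 that code for the main lysosome-associated membrane glycoproteins fell. Lamp1 had 599, 600 and 552 CPM in BP and 349, 428 and 404 in BdE (-0.57, SE 0.091, edgeR adjusted p = 0.0129). Lamp2, which is also needed for chaperone-mediated autophagy, had 243, 251 and 233 CPM in BP and 160, 195 and 185 in BdE (-0.43, SE 0.086, edgeR adjusted p = 0.0208). Neither gene's groups overlapped. Scarb2, for the receptor that carries glucocerebrosidase to the lysosome, had 162 to 164 CPM in BP and 122 to 154 in BdE, and did not pass (-0.22, SE 0.091, edgeR adjusted p = 0.135). Cln3, for a membrane protein mutated in Batten disease, had 27.2 to 28.5 CPM in BP and 29.8 to 37.4 in BdE (0.26, SE 0.103, edgeR adjusted p = 0.118). It was the 1 gene of the 33 with every BdE library above every BP library, where 21.2% of all genes tested were so placed. Every BdE library lay below every BP library for 15 genes, the 13 that fell with Ctsz and Scarb2, against 22.8% of all genes. Mcoln1, for the calcium channel mucolipin 1, had a fold change of 0.00 (SE 0.118).

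**Figure D2:**
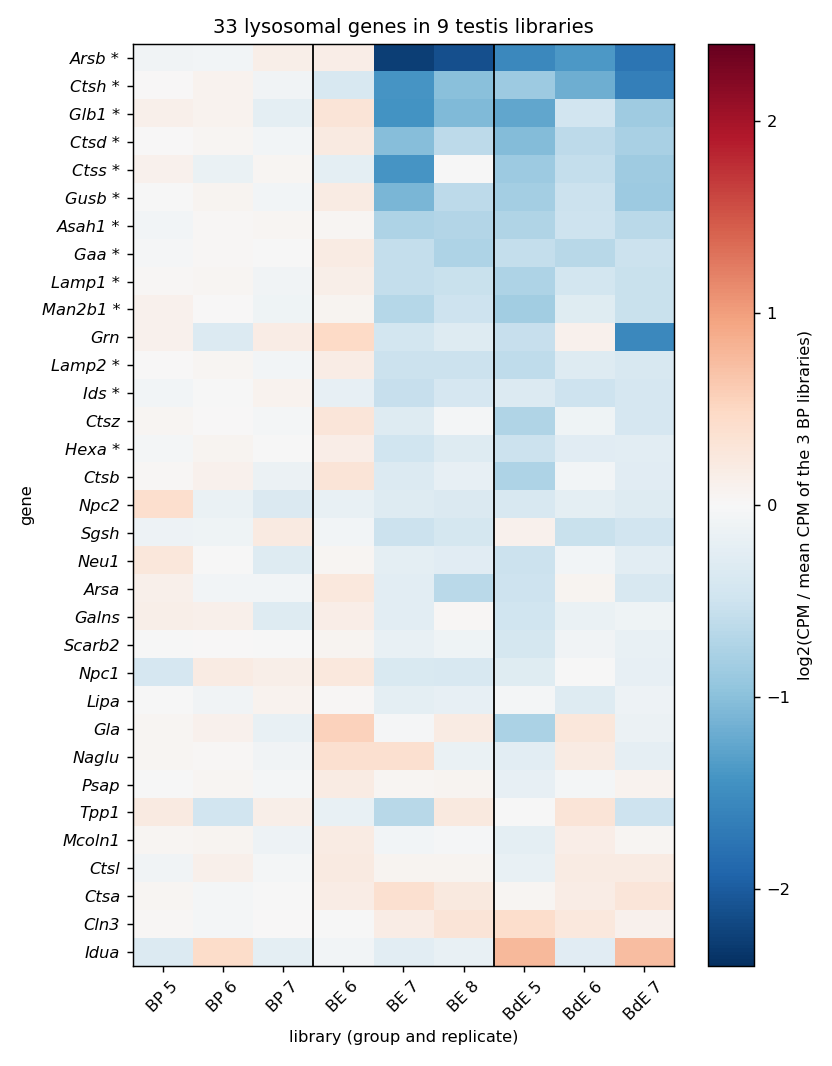
Colour gives log2 of the CPM over the mean CPM of the 3 BP libraries for each of the 33 genes (vertical axis, ordered by the fold change of BdE against BP) in each library (horizontal axis), and asterisks mark the 13 genes that fell in the 6-library fit. In the 13 marked genes BE 7, BE 8 and the 3 BdE libraries are blue, except Ctss in BE 8 (99.3% of the BP mean), and BE 6 lies above the BP mean in 10 of them and below it in Ctsh, Ctss and Ids. Psap, Mcoln1 and Ctsl stay within 85.4 to 116% of the BP mean in every library.

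BE was set against BP to ask what blood exosomes of wild-type mice did, and the BP libraries are those of the comparison above. In the 9-library fit 25 of 33 fold changes were negative (49.7% of all genes tested), with a median of -0.17 against 0.00 over all genes, and 0 of 33 passed (edgeR, lowest adjusted p = 0.38; background 0.0% lower and 0.0137% higher). At an unadjusted p under 0.05 there were 3, Ctsh and Ids lower and Ctsa higher, where 12.8% of all genes stood. DESeq2 and limma called 0, and 0 passed in the fit on the BE and BP libraries alone. These 3 genes were also the ones whose groups did not overlap, against 7.31% of all genes lower and 7.31% higher. Ctsh had 60.1, 29.5 and 39.4 CPM in BE 6, BE 7 and BE 8, below the 74.1 to 83.6 of BP, and Ids had 42.7, 33.6 and 37.2, below 46.6 to 51.9. Ctsa had 159, 183 and 166 CPM, above the 137 to 146 of BP.

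For most of the genes the BE libraries fell into BE 6 on one side and BE 7 and BE 8 on the other. Arsb had 59.2 CPM in BE 6, above every BP library, and 11.2 and 12.4 in BE 7 and BE 8, below every BdE library. Glb1 was split likewise, with 113 CPM in BE 6 and 33.6 and 43.5 in the others, as was Ctsd, with 667 against 284 and 370. Lamp1 had 644 CPM in BE 6 and 394 and 406 in BE 7 and BE 8, and Lamp2 had 274 against 169 and 169. Gaa (207 against 121 and 107 CPM), Gusb (55.1 against 22.3 and 31.0), Asah1 (232 against 133 and 138), Man2b1 (201 against 119 and 137) and Hexa (276 against 179 and 201) followed the same order. In each of these 10 genes BE 6 lay above the mean of BP, and the other BE libraries lay below every BP library. Ctss differed: it had 41.5 and 18.3 CPM in BE 6 and BE 7 but 48.5 in BE 8, within the range of BP. Counted over the list, BE 6 had 22 genes above and 3 below all BP libraries (25.6 and 25.2% of all genes tested), BE 7 had 21 below and BE 8 had 19 below (39.6 and 38.6%).

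Without BE 6, a choice made because that library stands apart and one that favours calls, 12 of 33 genes were lower and 1 was higher in BE than in BP (edgeR), where 16.2% of all genes were lower and 13.7% higher. The median was then -0.38. The 12 were the genes that fell in BdE other than Ctss. Arsb changed most (-2.18, SE 0.146, edgeR adjusted p = 0.00138), then Glb1 (-1.23, SE 0.245, adjusted p = 0.0108) and Ctsh (-1.19, SE 0.230, adjusted p = 0.00976). Ctsa was the gene that was higher (0.31, SE 0.085, adjusted p = 0.033). Markers of several cell types were lower in this fit too: 10 of 14 of macrophages (1 higher), 7 of 7 of myoid cells, 5 of 6 of the stroma, 5 of 8 of Leydig cells and 2 of 5 of the endothelium. Of 11 Sertoli markers 0 were lower and 3 higher, and of 6 spermatogonial markers tested 2 were lower and 1 higher. The part of these cell types in the result was not tested. In BdE against BP the same 8 libraries gave 12 genes lower and 0 higher, with 12.1% of all genes lower and 10.3% higher. Of the genes that fell with 6 libraries, Ctss was the one that did not pass here (-0.75, SE 0.318, edgeR adjusted p = 0.13). Since both comparisons use the same BP libraries, the values are set side by side and their likeness is not counted as a result.

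**Figure D3:**
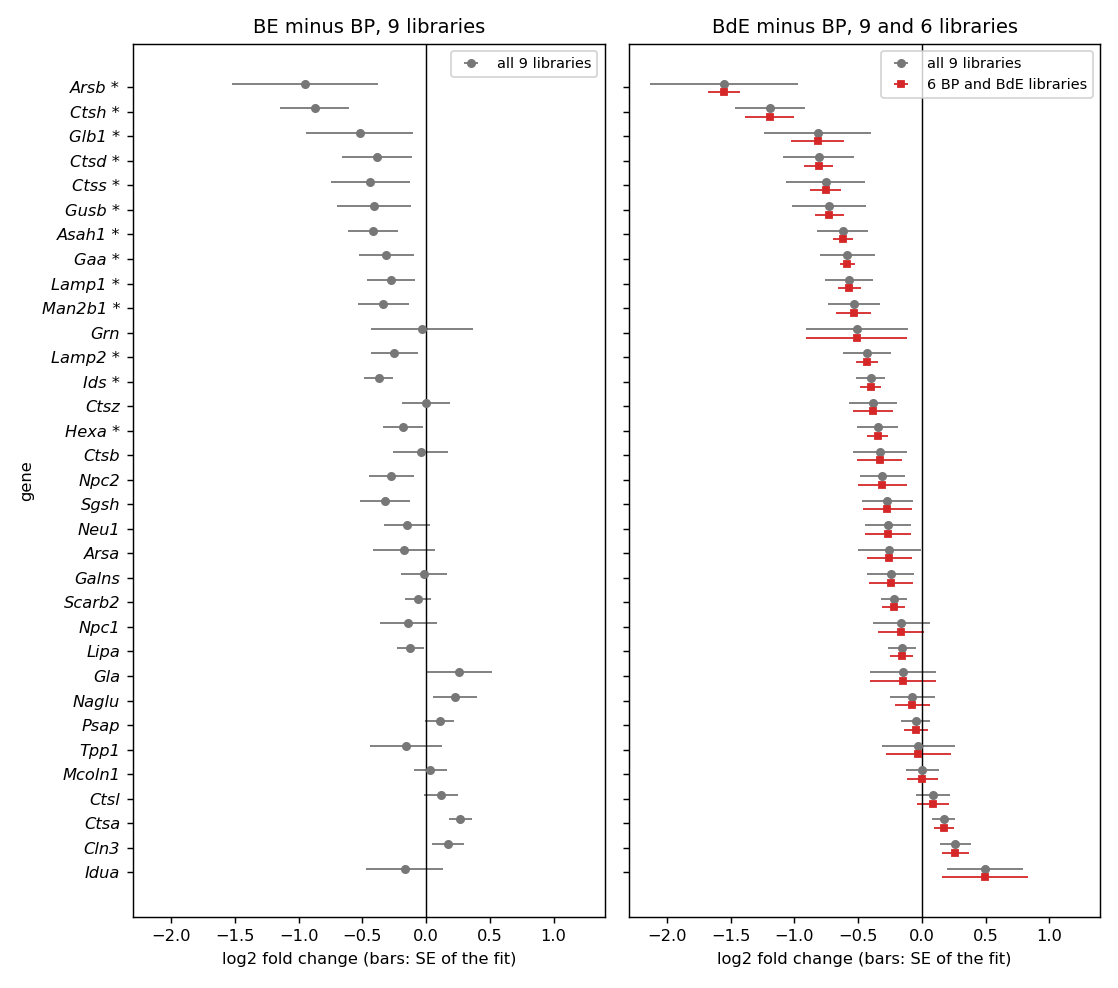
Log2 fold change (horizontal axis, bars show the SE of the fit) of each of the 33 genes in BE minus BP with 9 libraries (left) and in BdE minus BP with 9 or 6 libraries (right), with asterisks on the 13 genes that fell in the 6-library fit. The estimates of the 2 fits coincide, as for Arsb at -1.55. The bars of the 13 marked genes are shorter with 6 libraries (for Arsb SE 0.124 against 0.580). Some others are longer, such as that of Idua (SE 0.337 against 0.299).

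The comparison of BdE with BE asked whether the source of the exosomes mattered. With 9 libraries 0 of 33 genes passed (edgeR, adjusted p = 0.999 for each; background 0.00686% lower and 0.0% higher), 0 stood at an unadjusted p under 0.05 (background 2.33%), and DESeq2 and limma called 0. The fold changes were negative for 29 of 33 genes, where 51.2% of all genes were, with a median of -0.18 against -0.01. This direction rested on BE 6: without that library 12 of 33 were negative (48.1% of all genes), the median was 0.02, and again 0 of 33 passed (0.0137% of all genes lower and 0.0206% higher). For 0 of 33 genes were the BE and BdE libraries free of overlap, against 2.26% of all genes lower and 2.86% higher in BdE. Arsb had the lowest p without BE 6, lying higher in BdE (15.8 to 20.4 CPM) than in BE 7 and BE 8 (11.2 and 12.4), and did not pass (edgeR adjusted p = 0.385). A p that misses the threshold does not show that the exosomes of both sources acted alike. In the F test over the 3 groups 0 of 33 genes passed by edgeR and by limma, 1 by DESeq2, and 12 by edgeR without BE 6. Over all genes tested these shares were 0.0137% (edgeR), 1.33% (DESeq2) and 24.1% (edgeR without BE 6).

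Other genes of the lysosome were examined in BdE minus BP with the 6 libraries. Their lists were drawn up from general knowledge, but with earlier results of these data known, so their counts are not independent evidence. The counts in these lists stand beside 11.9% of all genes tested that fell and 9.2% that rose. Of 27 further hydrolases and activators 8 fell and 0 rose. Among them, Ctsc, for the protease that activates granule proteases, went from an FPKM of 9.80 ± 0.85 to 5.39 ± 0.72 (SD, n = 3; -0.79, SE 0.109, edgeR adjusted p = 0.00985), and Hyal1, for a hyaluronidase, from 2.33 ± 0.09 to 0.45 ± 0.25 (-2.29, SE 0.397, adjusted p = 0.0151). Scpep1, a carboxypeptidase gene, and Manba, for beta-mannosidase, changed by -0.53 and -0.46. Of 13 genes that sort enzymes to the lysosome 4 fell and 0 rose. They were both mannose 6-phosphate receptor genes, M6pr (-0.55, SE 0.073, edgeR adjusted p = 0.00916) and Igf2r (-0.49, SE 0.096, adjusted p = 0.0206), with Ap1g1, for an adaptor subunit of Golgi vesicles (-0.40), and Sort1, for sortilin (-0.32).

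Lists of the pump, the membrane, the regulators and autophagy had genes that fell and, except autophagy, genes that rose, in shares to be read against the 11.9% and 9.2% of all genes tested. Of 17 V-ATPase subunit genes tested 3 fell and 2 rose: Atp6v0a1 (-0.59, SE 0.102), Atp6v1a (-0.45) and Atp6ap1 (-0.75) fell, while Atp6v1g1 rose (0.38, SE 0.069, edgeR adjusted p = 0.0166). Of 20 other membrane protein genes 3 fell and 1 rose. Slc29a3, a nucleoside transporter gene (-0.93), Laptm5, which is expressed in blood cells (-1.01), and Lmbrd1, which serves the export of cobalamin (-0.32), fell, and Slc38a9, for an amino acid sensor upstream of mTORC1, rose (0.40). Among 16 regulator genes tested 3 fell and 2 rose, with Mtor (-0.58) and its partner Rptor (-0.52, SE 0.062, edgeR adjusted p = 0.00788) lower and Lamtor5 (0.52), of the complex that holds mTORC1 at the lysosome, and Fnip1 (0.33) higher. Of 15 autophagy genes 2 fell and 0 rose, Atg9a (-0.40) and Sqstm1 (-0.21). The medians of the 6 lists lay between -0.20 and 0.06, beside 0.01 over all genes and -0.31 over the 33 genes. With 9 libraries the genes named from these lists did not pass (edgeR, lowest adjusted p = 0.19).

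**Figure D4:**
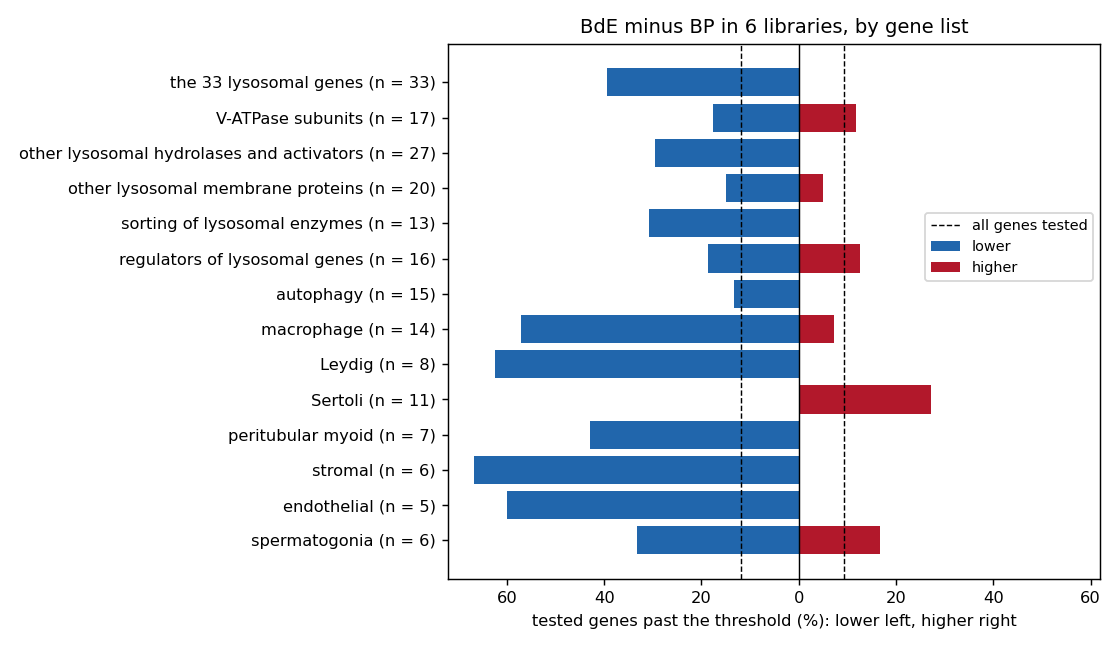
Share of the tested genes of each list (percent, horizontal axis) that fell (blue, to the left) or rose (red, to the right) in BdE minus BP with the 6 libraries, with dashed lines at the shares of all genes tested (11.9% and 9.2%). Of the 33 lysosomal genes 13 fell. The bars of every other list shown, except that of the Sertoli markers, also reach past the dashed line on the left. Of the Sertoli markers 3 rose.

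Markers of several cell types differed between the same groups, in counts to be read against the 11.9% of all genes tested that fell and the 9.2% that rose. Of 14 macrophage markers tested (15 listed) 8 fell and 1 rose in BdE with the 6 libraries. The macrophage surface gene Adgre1 had a log2 fold change of -1.84 (SE 0.170, edgeR adjusted p = 0.00534), Itgam -1.88, Lyz2 -1.15 and Mrc1 -0.41. The summed FPKM of the list was 518 to 535 in BP, 532 in BE 6, 238 and 333 in BE 7 and BE 8, and 294 to 382 in BdE, and 0 of its genes were at 0 in all libraries. Of 8 Leydig markers 5 fell and 0 rose, among them Hsd3b1 (-0.56) and Star (-1.09), which act in steroid synthesis. The summed FPKM of all 8 Leydig markers was 8996 to 9867 in BP and 9121 to 10842 in BdE, with overlap. It was dominated by Insl3 (7152 to 8022 in BP and 8313 to 9655 in BdE). The other 7 Leydig markers, summed after the values were seen, had 1650 to 1846 in BP and 778 to 1187 in BdE, without overlap. Stromal markers fell in 4 of 6, myoid markers in 3 of 7 and endothelial markers in 3 of 5. The summed FPKM of the stromal list was 118 to 133 in BP and 68.3 to 93.4 in BdE. Of 11 Sertoli markers 0 fell and 3 rose: Aard (0.59), Cldn11 (0.31) and Rhox5 (0.65). Of 6 spermatogonial markers tested 2 fell and 1 rose. The summed FPKM of the spermatid list was 28.3 to 28.6 in BP, 123, 275 and 67.6 in BE, and 6.63, 200 and 198 in BdE. The part of these cell types in the lysosomal result was not tested.

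Length bears on the comparison of BdE with BP, and overlapping genes bear on single values. The median exonic length of the 33 genes was 4499 bases against 3617 over all genes tested, and over the 33 genes the rank correlation of length with the fold change of BdE minus BP was 0.24, against -0.29 over all genes (a description across genes, which are not independent). With offsets that remove a trend on length, 11 of the 13 genes still passed in the 6 libraries, while Lamp2 (-0.29, edgeR adjusted p = 0.0811) and Man2b1 (-0.41, adjusted p = 0.101) did not. In that fit 9.56% of all genes tested were lower, and the median of the 33 genes was -0.24, against -0.31 without offsets. Exons of 15 of the 33 genes overlap those of another gene, and whether reads were counted by strand is not known from the labels or headers. In 7 of them the highest count of the other gene in any library was at least 10% of the listed gene's highest count. These were Ctsa with Pltp, Ctsb with Fdft1, Ctsz with Nelfcd, Glb1 with Tmppe, Npc1 with Rmc1, Idua with Dgkq and Cln3 with Apobr. Of these 7, Glb1 was among the genes that fell and Ctsa the gene that was higher in BE without BE 6, and the share of reads from the other gene was not tested. Ctsd, which fell, shares 34.4% of its exonic bases with Gm49369 on the same strand. Gm49369 had 0 to 50 counts, and what the overlap did to the counts of Ctsd was not tested. Arsb shares 32.3% of its exonic bases with Gm26527 on the other strand. No counts are given for Gm26527, so Arsb could not be judged in this way.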

How the data were processed

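RNA was sequenced in 9 testis libraries. The deposited table gives read counts per gene as whole numbers, per the file headers, and FPKM values computed by the authors; these match exonic lengths of GENCODE M21 times a constant of 1.14 for 33 of the 33 genes. Per the submitters' processing notes Bowtie 0.12.2 and mm8 were named; table coordinates are those of GRCm38 (93.8% of genes have the start and end of M21). The counting program and its strand setting are not known from the labels or headers.

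The members and lists were chosen with earlier results of these data known; the grouping by role was made after values were seen. Genes reaching FPKM 1 in 3 or more libraries were tested with edgeR 4.0.16 (R 4.3.3; quasi-likelihood, TMM, two-sided), with 1 group term and no covariate over 9 libraries, and again over the 2 groups compared. Benjamini-Hochberg adjustment ran over 14570 genes, with a threshold of 0.05. The scripts were tested on simulated data. Alternatives were DESeq2 1.42.0, limma 3.58.1 on log2(FPKM+1) or log2(FPKM+0.1), relative log expression factors, no filter, length offsets, a replicate block and each library left out. All 33 genes could be named; of other lists, up to 4 that passed with the smallest p, and up to 3 most abundant as tissue checks. Totals of 57923652 to 70103125 counts per library limit counting error; they do not cover differences between animals. TMM-scaled CPM are printed, and FPKM where genes are compared.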

Additional observations from a re-analysis of the deposited data

How the results depend on the processing

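With 9 libraries the count of genes past the threshold in BdE minus BP was 0, and it was 1 with DESeq2 (1.41% of all genes lower). With only the 2 groups compared it was 13 (11.9% of all genes lower). With 1 library left out it was 0 to 12 (12 without BE 6, where 12.1% of all genes were lower, and 0 without each other library). In BE minus BP it was 0, and 0 to 13 with 1 library left out (13 without BE 6, where 16.2% of all genes were lower and 13.7% higher). The median there went from -0.17 to between -0.38 (without BE 6) and -0.10 (without BE 7). Over the 3 groups together it was 0, then 1 with DESeq2 (1.33% of all genes) and 0 to 12 with 1 library left out (12 without BE 6, 24.1% of all genes). The median of BdE minus BE changed sign, from -0.18 to 0.0194 without BE 6 (-0.29 to 0.0194 with 1 library left out). In the 6 BP and BdE libraries the count of 13 went to 5 to 14 with 1 library left out (settings chosen after seeing the data), where 3.54 to 12.7% of all genes were lower. It stayed 13 with relative log expression factors, DESeq2 and limma, where 11.8, 16.6 and 14.8% of all genes were lower.

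A fit with the replicate number as a replicate block gave 0 genes in BdE minus BP, with 9 libraries and with 6 (lowest adjusted p of the 33 genes 0.0527 with 6; 0 of all genes tested). The labels do not say that the numbers pair libraries. Residuals of BP and BdE libraries with the same number correlated between -0.117 and 0.0717, and 0 of 6 libraries correlated best with their own number. With BE included, the highest correlation of a same-number pair was 0.233 (BE 6 and BdE 6), and BE 7 and BdE 7 had 0.179. Pairs of different numbers correlated between -0.175 and 0.230. The residuals were centred within each small group, which constrains their correlations, so these values cannot decide the question. Whether the libraries are paired is not known.

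Under 1 or more of 17 alternatives the fold change took the other sign in 20 genes in BdE minus BE (fold changes up to 0.60 in size), in 10 in BE minus BP (up to 0.18) and in 6 in BdE minus BP (up to 0.15). Of the 20 genes, 12 had passed in BdE minus BP with 6 libraries or in BE minus BP without BE 6, not in BdE minus BE. The values for the 6 genes in BdE minus BP follow. With limma, Ctsl was -0.000392 and -0.00042 and Mcoln1 -0.0677 and -0.0783 (pseudocounts 1 and 0.1). Mcoln1 was also -0.013 with no filter and -0.00236 with the replicate block, and Tpp1 was 0.0435 with length offsets. With 1 library left out the ranges were -0.402 to 0.0846 for Gla, -0.123 to 0.0235 for Psap, -0.217 to 0.161 for Tpp1, -0.226 to 0.00686 for Naglu and -0.0705 to 0.108 for Mcoln1. The causes were not tested. The lowest count of any of the 33 genes was 534.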
